A study of Mus musculus with 3 samples.

Results

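The potassium channel genes are those whose symbol starts with Kcn, followed by subfamily letters and a number. They were taken from the first column of the 3 count tables, without the antisense transcript Kcnq1ot1, where the mean CPM (the count scaled to the size of the library) over the 3 libraries was at least 0.5. This gave 83 of the 17992 genes counted. All 83 symbols of that pattern reached the level, so none lay just below it, and those just above it were Kcnq1 at 0.596 CPM and Kcnh8 at 0.712 CPM. The lowest sum of any gene in the tables was 21 counts over the 3 libraries, so channel genes with fewer counts are not seen here. Of the 83, 81 encode a pore-forming or auxiliary subunit of a potassium channel. The other two, Kcnd3os and Kcnmb4os2, are antisense RNAs that carry a channel's name.

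The libraries were made from total RNA of the brain of adult wild-type C57BL/6 mice and sequenced on an Illumina instrument. The sham library came from mice labelled as untreated. The vehicle library was made from the middle cerebral artery occlusion model, a surgical block of the artery that feeds much of the hemisphere, and was also labelled as untreated. The AGNHW library was of mice dosed with AGNHW, short for Angong Niuhuang Wan, a Chinese herbal and mineral pill, at 3 mg per g daily, and the labels do not repeat the occlusion for this group. The brain region, the time after the operation and the number of mice behind a library are not stated in the sources used here. With 1 library per group, no difference below has a replicate check and no p-value is given. A ratio compares these libraries, not the conditions, and its 95% interval covers counting error only. In bulk tissue, fewer cells of a type and less RNA per cell cannot be told apart.

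The libraries held 15718594 to 18286151 counts. The 8 neuronal markers examined were all counted and summed to 5683, 5826 and 5629 CPM in sham, vehicle and AGNHW. The vehicle library stood apart in transcripts of the pituitary, a gland below the brain. The 7 pituitary markers counted, of 8 listed, summed to 3745 CPM there, against 4.41 CPM in sham, where Gh, Prl and Ghrhr were at 0, and 4.6 CPM in AGNHW, where Cga was at 0. The 8 markers of brainstem and monoamine neurons summed to 39.0, 89.9 and 71.4 CPM in sham, vehicle and AGNHW. The part of these differences in the results below was not tested. The ratio of AGNHW to sham takes no counts from the vehicle library, which enters only through the scaling between libraries and the mean CPM. The values of that comparison are given beside the others.

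Potassium channels let potassium leave or enter the cell and so set the resting potential of neurons and glia, end action potentials and space out firing. Voltage-gated Kv channels open on depolarisation and are built from pore subunits that assemble within a subfamily, with auxiliary subunits that change their gating and their place in the membrane. Calcium- and sodium-activated channels follow spikes, inward rectifiers (Kir) hold cells near the potassium equilibrium potential, and tandem-pore-domain channels (K2P) carry the leak current. In brain, loss of oxygen and blood flow is followed by a rise of extracellular potassium, which astrocytes take up partly through Kir channels.

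Vehicle against sham sets the occlusion model beside its control. More potassium channel genes were lower than higher in the vehicle library. Kcnh7, which encodes the Erg3 channel, was 3.02-fold lower (2.58 to 3.56), and Kcnv1, Kcna1 and Kcnd2, of the Kv8, Kv1 and Kv4 subfamilies, were 1.82-fold to 2.09-fold lower. Kcnab2, the Kv beta subunit gene with the highest level of all members per kilobase, was 1.52-fold higher (1.48 to 1.55), and Kcng4, a modifier of Kv2 channels, was 1.81-fold higher (1.51 to 2.16). A gene was called here when its ratio of CPM, scaled between libraries by the trimmed mean of M-values (TMM), was at least 1.5 either way, the counting interval excluded 1 and the mean CPM was at least 1. Of the 83 members, 78 had that mean CPM. Of these 78, 17 (21.8%) were called lower, where 14.2% of all genes tested were, and 6 (7.69%) were called higher, where 8.66% of all genes were. In either direction, 29.5% of the members and 22.8% of all genes were called. With plain CPM in place of TMM scaling, the shares of all genes were 18.2% lower and 5.72% higher, and the members had 22 lower and 4 higher. The median log2 ratio of the 83 members was -0.11, and that of all genes tested 0.01.

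**Figure D1:**
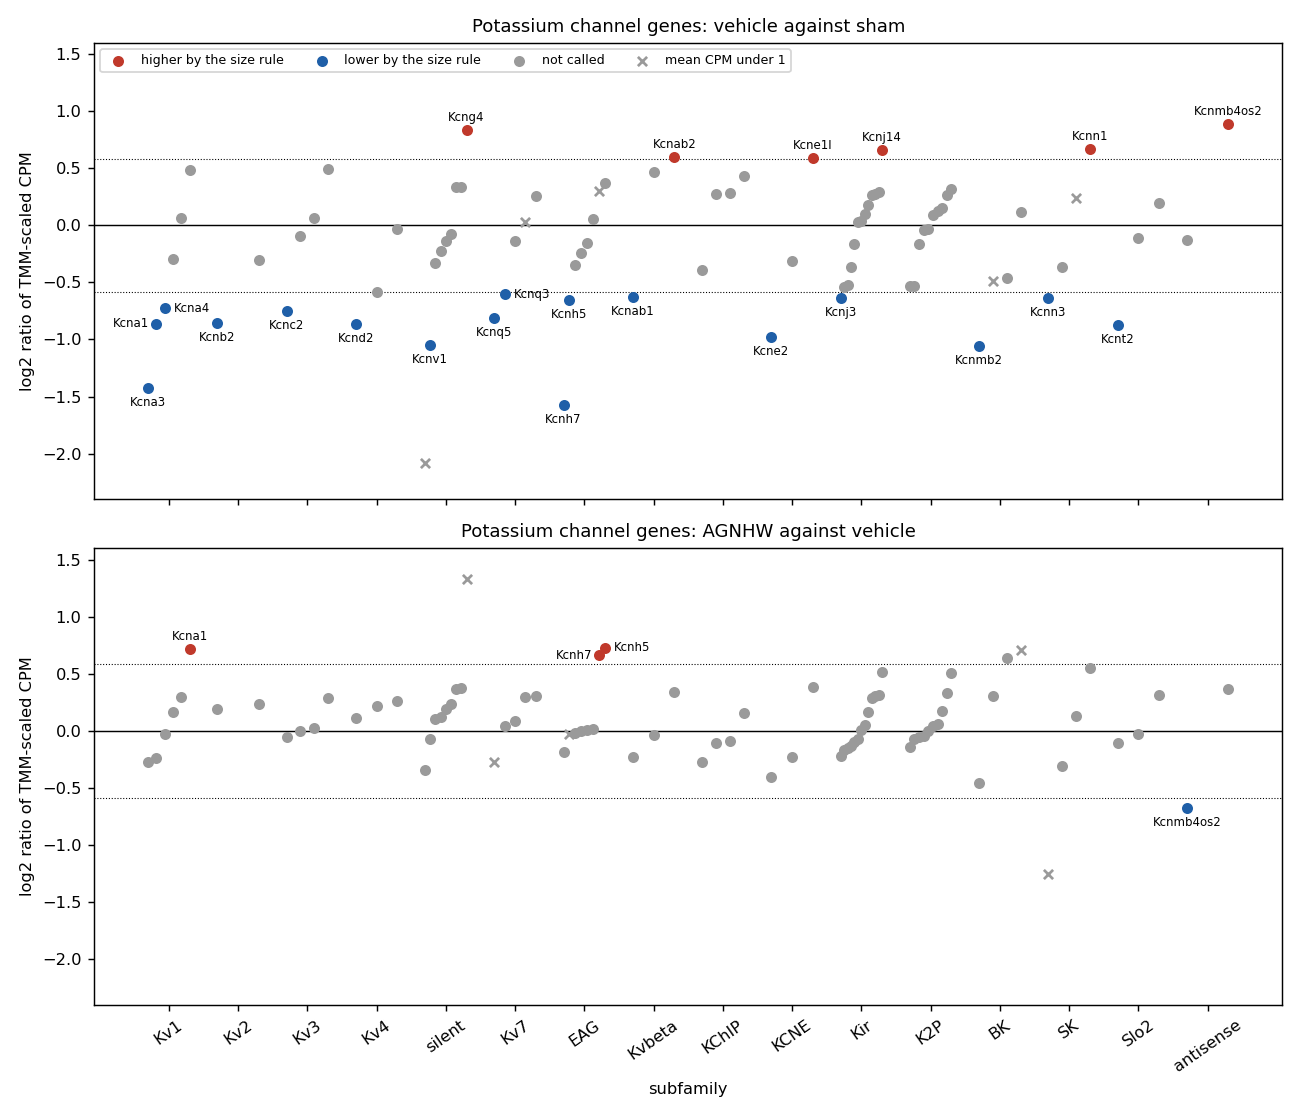
Log2 ratio of TMM-scaled CPM of each of the 83 potassium channel genes by subfamily, vehicle against sham above and AGNHW against vehicle below. Each point is 1 gene from 1 library per group. Red and blue points were called higher and lower, grey points were not called, crosses had a mean CPM under 1, and the dotted lines mark 1.5-fold. Called genes lie in most subfamilies above, while only 4 members pass the lines as called genes below.

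The direction in vehicle followed the base composition of the transcript. Transcript length and GC content were taken from the longest protein-coding GENCODE transcript, or the longest of any type for the antisense RNAs, and were found for all 83 members. The 28 members of lowest GC content, from 36.6% to 48.2%, had 13 called lower, 0 called higher and a median log2 ratio of -0.54 between vehicle and sham. The 28 members of highest GC content, from 56.5% to 69.4%, had 6 higher and 1 lower, with a median of 0.25. All genes tested shared this pattern. In the same ranges of GC content, 28.9% of 5740 genes were lower, with a median of -0.35, and 17.7% of 2679 genes were higher, with a median of 0.31. Across the 83 members the Spearman correlation of the log2 ratio was 0.64 with GC content and -0.37 with length, given as a description, since all members share the same pair of libraries.

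Over 9941 genes of at least 10 CPM, a smooth trend on length and GC content accounted for 50.1% of the variance in log2 ratios between vehicle and sham. After this trend was removed, 7 members (8.97%) were called lower, against 7.13% of all genes, and 2 (2.56%) higher, against 4.1%, or 11.5% against 11.2% in either direction. The 7 were Kcna1, Kcna3, Kcne2, Kcnh5, Kcnh6, Kcnh7 and Kcnn3, and the 2 were Kcng4 and Kcnj2. Of these 9, Kcnh6 and Kcnj2 had not been called without the correction. With the longest transcript of any type, Kcnn3 and Kcnj2 were no longer called, and Kcnip1 was called higher and Kcnmb2 and Kcnv1 lower. Under the correction with the longest protein-coding transcript, the median log2 ratio was -0.07 over the members and -0.02 over all genes. The plot of log2 ratio against GC content shows the values before and after this correction. Values after removal of the trend are called corrected below.

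**Figure D2:**
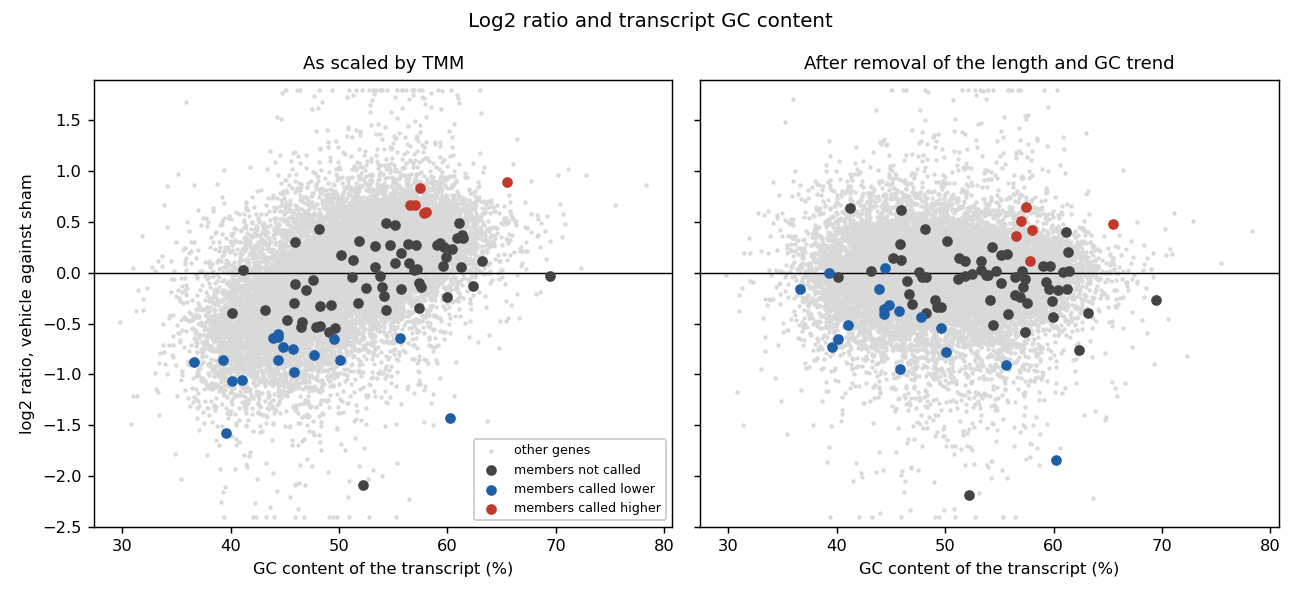
Log2 ratio of vehicle to sham against the GC content of the transcript in percent, as scaled by TMM on the left and after removal of the length and GC trend on the right. Small grey points are the other genes with a mean CPM of at least 1, drawn at the edge where they lie outside the range, and large points are the 83 members, coloured by the uncorrected call. On the left the members called lower sit mostly under 48.2% GC and those called higher above 56.5%, and on the right the Spearman correlation over the members is 0.10.

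The promoters of the members did not show the same order. RefSeq promoters (build GRCm38.p6, the table's own build and not the mm9 build of the counts) were matched by symbol for 60 members. For the 46 of these with a single listed start, the GC content of the 250 bases before the start had a Spearman correlation of -0.10 with the log2 ratio of vehicle to sham, where the GC content of the transcripts of the same 46 genes had 0.56. The following promoters are shown because they belong to the pair of named subunit genes with the lowest and the pair with the highest called ratios among those of at least 50 counts with 1 listed start. They are written 5′ to 3′ on the gene's strand, with capitals marking GC boxes (GGGCGG on either strand, overlaps included).
Kcnh7 (lower in vehicle), chr2:63184288-63184537, minus strand: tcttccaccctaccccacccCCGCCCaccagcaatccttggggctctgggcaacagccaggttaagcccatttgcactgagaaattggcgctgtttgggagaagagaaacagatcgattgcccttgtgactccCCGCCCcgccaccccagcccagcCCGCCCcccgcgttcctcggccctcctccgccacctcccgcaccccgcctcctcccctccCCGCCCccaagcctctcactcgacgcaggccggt
Kcnt2 (lower in vehicle), chr1:140245468-140245717, plus strand: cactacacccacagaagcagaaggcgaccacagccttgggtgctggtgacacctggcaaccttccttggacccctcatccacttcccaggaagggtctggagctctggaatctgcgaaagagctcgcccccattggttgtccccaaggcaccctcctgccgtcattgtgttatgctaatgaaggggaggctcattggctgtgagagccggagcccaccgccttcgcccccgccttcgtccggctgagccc
Kcng4 (higher in vehicle), chr8:119635681-119635930, minus strand: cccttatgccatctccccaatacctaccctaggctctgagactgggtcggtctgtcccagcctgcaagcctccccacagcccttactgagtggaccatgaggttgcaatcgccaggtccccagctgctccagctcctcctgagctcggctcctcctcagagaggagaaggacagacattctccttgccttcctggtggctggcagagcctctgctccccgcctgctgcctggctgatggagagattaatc
Kcne1l (higher in vehicle), chrX:142306199-142306448, minus strand: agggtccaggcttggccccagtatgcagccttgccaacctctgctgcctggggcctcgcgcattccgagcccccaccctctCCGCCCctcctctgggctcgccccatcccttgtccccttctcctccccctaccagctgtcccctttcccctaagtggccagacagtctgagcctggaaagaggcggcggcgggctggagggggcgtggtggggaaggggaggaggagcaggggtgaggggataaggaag

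The Kcnh7 promoter had 67.6% GC and 4 GC boxes, although its transcript had 39.6% GC, near the lowest values of the members, 39.3% in Kcnb2 and 36.6% in Kcnt2. The promoter of Kcnt2 had 61.6% GC and 0 GC boxes, that of Kcng4 60.4% and 0, and that of Kcne1l 68.0% and 1. All 4 promoters lay above the median GC content of 52.4% over the 32851 promoters of the table, those of the lower genes and those of the higher genes alike. The median over the 84 promoters of members was 59.6%, so such values are usual among the members. A GC box was found in 40 of 84 promoters of members (47.6%) and in 32.7% of all promoters. A TATA box (TATAAA) was in 3 of the 84 (3.57%) and in 12.4% of all. The cyclic AMP response element TGACGTCA was in 0 of the 84 and in 1.55% of all, and its half-site TGACG, which lies within it, in 13 (15.5%) and 17.8%, each on both strands. A match is a run of letters and not a shown binding site.

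Per kilobase of transcript, the most abundant member was Kcnab2 at a mean of 201 CPM per kb, followed by Kcnj4 at 84.6, Kcnip2 at 77.9 and Kcnip3 at 67.0. The members together took up 0.598% of the unscaled counts in sham, 0.566% in vehicle and 0.587% in AGNHW. As TMM-scaled CPM they summed to 5809, 5844 and 5841 in that order, so the lower share in vehicle was not seen on this scale. Per kilobase they summed to 1265, 1366 and 1320. On the same per-kilobase scale the Kv beta subunits summed to 208 in sham, 294 in vehicle and 262 in AGNHW, while the Kv4 pore subunits summed to 21.3, 14.1 and 16.3. Where a member is called the most abundant of its subfamily below, this is per kilobase, with 1 transcript length per gene.

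The Kv1 pore subunits form low-threshold channels of axons and nerve terminals. Kcna2, encoding Kv1.2 and the most abundant of them, was at 236, 193 and 216 CPM in sham, vehicle and AGNHW, and was not called in any comparison. Kcna1, encoding Kv1.1, the axonal subunit whose mutations cause episodic ataxia, was at 42.2, 23.1 and 38.2 CPM in sham, vehicle and AGNHW. The vehicle library was low and the other two were close together. Kcna1 was 1.83-fold lower in vehicle than in sham (1.61 to 2.08) and 1.65-fold higher in AGNHW than in vehicle (1.45 to 1.88), and both calls held after correction, at log2 ratios of -0.78 and 0.66. Between AGNHW and sham it was not called, at a log2 ratio of -0.15.

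Kcna4, the Kv1 subunit of an A-type current, was at 19.4, 11.6 and 14.4 CPM in sham, vehicle and AGNHW. It was 1.67-fold lower in vehicle than in sham (1.39 to 2.01), and its corrected log2 ratio of -0.32 was not called. Kcna3, named after its values were seen, encodes Kv1.3, a channel of lymphocytes and microglia, and had 49 counts in sham, 12 in vehicle and 14 in AGNHW. It was 3.3-fold lower in vehicle (1.73 to 6.82) and 3.4-fold lower in AGNHW (1.85 to 6.66) than in sham, with corrected log2 ratios of -1.84 and -1.67, and its transcript had the highest GC content, 60.3%, of the members called lower in vehicle. Of 8 microglial markers, 3 were lower and 0 higher in vehicle than in sham, where 14.2% and 8.66% of all genes were. In AGNHW, 2 were lower and 0 higher than in sham, where 5.47% and 3.32% of all genes were. The summed level of the 8 was 288, 248 and 263 CPM in sham, vehicle and AGNHW. None of the 8 was at 0. The part of these cells in the values of Kcna3 was not tested. Kcna5 and Kcna6 were not called in any comparison.

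The make-up of the Kv1 counts shifted with these genes. Kcna1 held 10.9% of the Kv1 counts in sham (10.2% to 11.6%, exact binomial interval), 7.12% in vehicle (6.42% to 7.87%) and 10.9% in AGNHW (10.1% to 11.6%). Kcna6, named after its values were seen, held 19.8% in sham (18.9% to 20.8%), 24.8% in vehicle (23.6% to 26%) and 19.4% in AGNHW (18.5% to 20.4%). The vehicle share of each lay outside the intervals of the other two libraries, which overlapped.

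Kv2 channels carry the delayed rectifier current of the cell body and dendrites. Kcnb2, encoding Kv2.2, was at 16.5, 9.01 and 10.7 CPM in sham, vehicle and AGNHW. It was 1.83-fold lower in vehicle (1.5 to 2.26) and 1.55-fold lower in AGNHW (1.29 to 1.86) than in sham. Its transcript is the longest of the members at 14845 bases, and its corrected log2 ratios were near 0 for vehicle and -0.10 for AGNHW.

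Kv3 channels repolarise fast-firing neurons, such as parvalbumin interneurons. Kcnc2, encoding Kv3.2, was at 65.9, 39.0 and 47.8 CPM in sham, vehicle and AGNHW. It was 1.69-fold lower in vehicle (1.53 to 1.87), with a corrected log2 ratio of -0.37 that was not called, and its ratio in AGNHW to sham was not called. Kcnc1, encoding Kv3.1, was at 250, 234 and 239 CPM in sham, vehicle and AGNHW.

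Kcnc2 held 9.15% of the Kv3 counts in sham (8.67% to 9.65%), 4.91% in vehicle (4.53% to 5.31%) and 5.95% in AGNHW (5.57% to 6.34%). The 3 intervals did not overlap, and the vehicle share was the lowest. Of 8 markers of parvalbumin interneurons, 1 was higher (Pvalb) and 1 lower (Erbb4) in vehicle than in sham, where 8.66% and 14.2% of all genes were. The summed level of the 8 was 1729, 1994 and 2024 CPM in sham, vehicle and AGNHW, with none at 0. Most of this sum was 1 gene, Cplx1, at 1096.8, 1390.5 and 1349.4 CPM in that order, so the sum mainly follows Cplx1. The part of these cells in the Kv3 values was not tested.

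**Figure D3:**
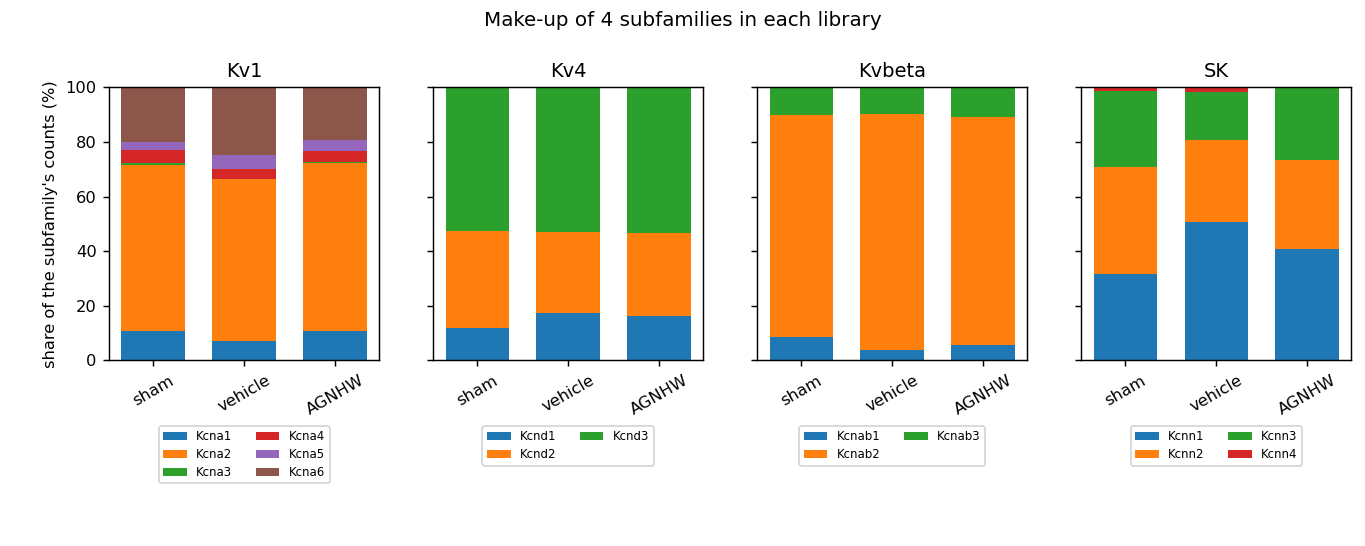
Make-up of 4 subfamilies in each library, as the percent of the subfamily's counts held by each gene, stacked to 100%. Each bar is 1 library (sham, vehicle, AGNHW). Kcna1 has its smallest Kv1 share in vehicle at 7.12%, Kcnd2 its largest Kv4 share in sham at 35.6%, Kcnab1 its smallest Kv beta share in vehicle at 3.90%, and Kcnn1 has its largest SK share in vehicle at 50.5%.

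Kv4 channels carry the A-type current of dendrites, which opens below the spike threshold. Kcnd2, encoding Kv4.2, was at 46.1, 25.2 and 30.3 CPM in sham, vehicle and AGNHW, so sham was high and the other two low. It was 1.82-fold lower in vehicle (1.62 to 2.06) and 1.52-fold lower in AGNHW (1.36 to 1.69) than in sham, and neither corrected log2 ratio, -0.41 and -0.36, was called. Kcnd3, encoding Kv4.3 and the most abundant Kv4 subunit, was at 68.2, 45.5 and 53.0 CPM in sham, vehicle and AGNHW. Its log2 ratio of vehicle to sham, -0.58, lay just inside the 1.5-fold limit. Kcnd1 differed little, with log2 ratios from -0.03 to 0.11 over the 3 comparisons.

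The silent Kv subunits form no channel alone and modify Kv2 channels. Kcnf1, the most abundant, was at 133, 113 and 121 CPM in sham, vehicle and AGNHW and was not called. Kcnv1, encoding Kv8.1, was at 44.4, 21.3 and 25.2 CPM in sham, vehicle and AGNHW. It was 2.09-fold lower in vehicle (1.83 to 2.38) and 1.76-fold lower in AGNHW (1.57 to 1.98) than in sham. The corrected log2 ratios were -0.51 in each and were not called. With the longest transcript of any type they were -0.59 for vehicle, which was called lower, and -0.55 for AGNHW, which was not called.

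Kcng4, encoding Kv6.4, was at 11.3, 20.4 and 16.1 CPM in sham, vehicle and AGNHW. It was 1.81-fold higher in vehicle than in sham (1.51 to 2.16) and stayed called after correction at a log2 ratio of 0.65. Kcns1, encoding Kv9.1, was at 18.9, 24 and 31.2 CPM in sham, vehicle and AGNHW, and was 1.65-fold higher in AGNHW than in sham (1.44 to 1.89), with a corrected log2 ratio of 0.53 that was not called. Kcng3, named after its values were seen, had 28 counts in sham, 2 in vehicle and 14 in AGNHW. Its mean CPM was under 1, and its ratio of sham to vehicle was 11.3 with a counting interval of 2.85 to 98.

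Kv7 channels carry the M-current, the slow current that acetylcholine shuts off and that holds back repeated firing. Kcnq3, encoding Kv7.3, was at 133, 87.8 and 109 CPM in sham, vehicle and AGNHW, and Kcnq5, encoding Kv7.5, was at 68.8, 39.2 and 48.1 CPM in that order. Kcnq3 was 1.52-fold lower (1.42 to 1.63) and Kcnq5 1.76-fold lower (1.59 to 1.94) in vehicle than in sham, and neither was called after correction, at log2 ratios of 0.05 and -0.43. The corrected value of Kcnq3, whose transcript is 11824 bases long, had the opposite sign. Kcnq1 had 9 to 12 counts per library.

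The Kcnh genes encode the ether-a-go-go family, which includes the Erg channels (Kv11). Kcnh7, encoding Erg3, was at 39.4, 13.0 and 20.8 CPM in sham, vehicle and AGNHW, with 741, 198 and 379 counts, so that sham was high, vehicle low and AGNHW between them. It was 3.02-fold lower in vehicle than in sham (2.58 to 3.56), 1.59-fold higher in AGNHW than in vehicle (1.34 to 1.9) and 1.9-fold lower in AGNHW than in sham (1.67 to 2.15). After correction it stayed called between vehicle and sham, at a log2 ratio of -0.73, while the corrected values of 0.32 and -0.42 for the other comparisons were not called. Kcnh5, encoding an Eag channel, was at 3.99, 2.43 and 4.22 CPM in sham, vehicle and AGNHW. It was 1.64-fold lower in vehicle than in sham (1.09 to 2.50) and 1.73-fold higher in AGNHW than in vehicle (1.16 to 2.64), with 37 to 77 counts per library, and both calls held after correction.

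Kcnh3, encoding the Elk channel Kv12.2 and the most abundant of the family, was at 209, 218 and 215 CPM in sham, vehicle and AGNHW. Of the other 5 genes of the family, Kcnh1, Kcnh2, Kcnh4 and Kcnh6 were not called in any comparison as scaled, and Kcnh8 had a mean CPM under 1. Kcnh6, named after its values were seen, was called lower in vehicle after correction alone, at a log2 ratio of -0.58.

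Auxiliary subunits of Kv channels did not share a direction. The Kv beta subunits bind Kv1 channels on the inner face of the membrane. Kcnab2 was at 620, 940 and 803 CPM in sham, vehicle and AGNHW, and was 1.52-fold higher in vehicle than in sham (1.48 to 1.55), with a corrected log2 ratio of 0.42 that was not called. Kcnab1, whose product speeds inactivation, was at 65.7, 42.4 and 53.8 CPM in sham, vehicle and AGNHW, and was 1.55-fold lower in vehicle (1.41 to 1.71), with a corrected log2 ratio of -0.35 that was not called. Kcnab1 held 8.63% of the Kv beta counts in sham (8.18% to 9.11%), 3.90% in vehicle (3.61% to 4.21%) and 5.61% in AGNHW (5.28% to 5.96%).

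The KChIP proteins are calcium sensors that bind Kv4 channels. Kcnip2, the most abundant per kilobase, was at 167, 203 and 190 CPM in sham, vehicle and AGNHW, and none of the 4 Kcnip genes was called in any comparison as scaled. Their log2 ratios of vehicle to sham ran from -0.39 to 0.43, while those of the Kv4 pore subunits ran from -0.86 to -0.03. The other kind of Kv4 partner, which is no member, is encoded by Dpp6 and Dpp10. Dpp6 was at 329, 410 and 374 CPM in sham, vehicle and AGNHW and was not called, with a log2 ratio of vehicle to sham of 0.32. Dpp10 was at 94.9, 57.0 and 72.0 CPM in the same order, and was 1.67-fold lower in vehicle than in sham (1.53 to 1.81), with a corrected log2 ratio of 0.11 that was not called.

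The KCNE proteins are small single-span subunits. Kcne2, expressed in choroid plexus and stomach, had 54 counts in sham, 20 in vehicle and 33 in AGNHW. It was 2.18-fold lower in vehicle (1.29 to 3.85) and 1.59-fold lower in AGNHW (1.01 to 2.53) than in sham, and the first stayed called after correction at a log2 ratio of -0.95. Of 8 choroid plexus markers, 2 were called higher in vehicle (Ttr and Folr1), where 8.66% of all genes were, and 0 lower, where 14.2% were. The other 6 were not called, with log2 ratios from -0.27 in Kl to 0.60 in Steap1. The summed level of the 8, most of it Ttr, was 545, 971 and 661 CPM in sham, vehicle and AGNHW, and none was at 0. Kcnj13, the Kir7.1 channel of the same epithelium, had 27, 19 and 20 counts in that order and was not called. Kcne1l was at 4.94, 7.56 and 6.41 CPM in sham, vehicle and AGNHW, and was 1.53-fold higher in vehicle (1.15 to 2.03), with a corrected log2 ratio of 0.12. Kcne4, named after its values were seen, had 46 counts in sham, 29 in vehicle and 25 in AGNHW and was 1.79-fold lower in AGNHW than in sham (1.07 to 3.03).

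**Figure D4:**
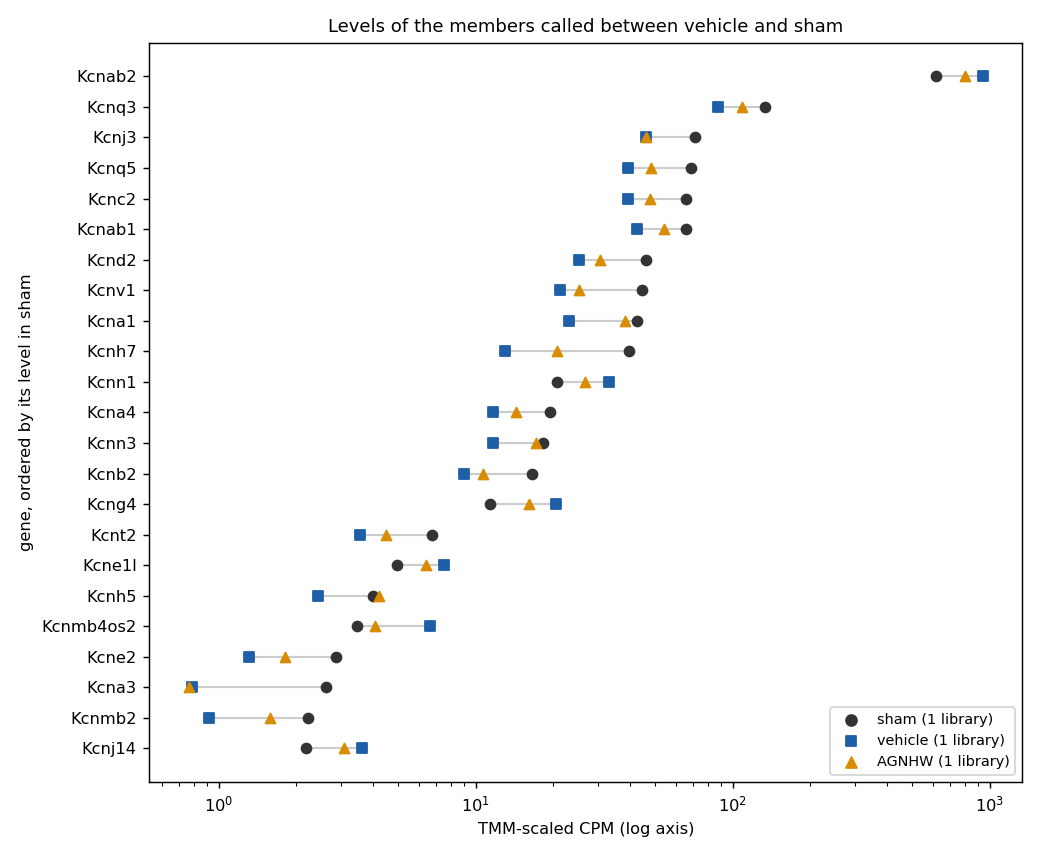
TMM-scaled CPM on a log axis of the 23 potassium channel genes called between vehicle and sham, ordered by their level in sham. Each symbol is 1 library (circle sham, square vehicle, triangle AGNHW), and the grey line joins the lowest and the highest. Kcnh7 runs from 13.0 to 39.4 CPM, Kcna3 has vehicle and AGNHW side by side, and Kcna1, Kcnn3 and Kcnh5 have AGNHW next to sham.

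Channels opened by intracellular calcium differed between types. The large-conductance BK channel, which shapes spikes and transmitter release, has 1 pore gene, Kcnma1, at 219, 159 and 197 CPM in sham, vehicle and AGNHW, not called in any comparison, with a corrected log2 ratio of 0.15 between vehicle and sham. Its beta subunit Kcnmb2, named after its values were seen, had 42 counts in sham, 14 in vehicle and 29 in AGNHW and was 2.42-fold lower in vehicle than in sham (1.3 to 4.81). After correction this call was lost with the protein-coding transcript and held with the longest of any type. Kcnmb4, the neuronal beta subunit, was not called as scaled.

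The small-conductance SK channels carry the afterhyperpolarisation that follows a spike train. Kcnn1 was at 20.7, 33.1 and 26.7 CPM in sham, vehicle and AGNHW, and was 1.6-fold higher in vehicle than in sham (1.4 to 1.83), with a corrected log2 ratio of 0.51 that was not called. Kcnn3 went the other way, at 18.3, 11.6 and 17.1 CPM in sham, vehicle and AGNHW, and was 1.57-fold lower in vehicle than in sham (1.31 to 1.89). Kcnn2 was at 25.6, 19.7 and 21.6 CPM in sham, vehicle and AGNHW and was not called. The sum of the 4 Kcnn genes was 65.4, 65.5 and 65.7 CPM in the same order, so the SK genes differed between libraries in make-up and hardly in total. Kcnn1 held 31.7% of them in sham (29.1% to 34.4%), 50.5% in vehicle (47.3% to 53.7%) and 40.6% in AGNHW (37.8% to 43.5%). The corrected log2 ratio of Kcnn3 between vehicle and sham depends on the transcript model, being -0.90 with the longest protein-coding transcript of 2884 bases and -0.11 with the longest of any type, of 8314 bases.

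Sodium-activated channels follow spikes in a similar way. Kcnt1, encoding Slack, was at 190, 217 and 202 CPM in sham, vehicle and AGNHW and was not called. Kcnt2, encoding Slick, was at 6.75, 3.55 and 4.49 CPM in sham, vehicle and AGNHW. It was 1.9-fold lower in vehicle (1.37 to 2.66) and 1.5-fold lower in AGNHW (1.13 to 2.01) than in sham, with corrected log2 ratios of -0.15 and -0.11. Its transcript has the lowest GC content of the members, 36.6%.

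Of the 13 Kir genes, 1 was called higher and 1 lower in vehicle than in sham, where 8.66% and 14.2% of all genes were. Kcnj10, the Kir4.1 channel through which astrocytes take up potassium, was at 247, 169 and 190 CPM in sham, vehicle and AGNHW. It was highest in sham, and its ratio of sham to vehicle of 1.46 (1.39 to 1.53) was short of 1.5, as was that of sham to AGNHW, 1.3 (1.24 to 1.36). Its heteromeric partner Kcnj16 was not called. Of the 8 astrocyte markers, 2 were lower and 1 higher in vehicle than in sham, where 14.2% and 8.66% of all genes were. The 8 had a median log2 ratio of -0.32 in that comparison. Their summed level was 3737, 3565 and 3590 CPM in sham, vehicle and AGNHW, with none at 0. The part of these cells in the level of Kcnj10 was not tested.

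The G protein-gated Kir3 (GIRK) channels answer GABA-B and other receptors with a slow inhibitory current. Kcnj3, encoding GIRK1, was at 71.5, 45.9 and 46.1 CPM in sham, vehicle and AGNHW, so that only sham was high. It was 1.56-fold lower in vehicle (1.42 to 1.71) and 1.55-fold lower in AGNHW (1.42 to 1.69) than in sham, with corrected log2 ratios of -0.16 and -0.37 that were not called. Kcnj6, encoding GIRK2, was at 15.1, 10.4 and 12.9 CPM in sham, vehicle and AGNHW and was not called, and Kcnj9, encoding GIRK3, had log2 ratios from -0.13 to 0.03 over the 3 comparisons.

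Kir6 channels form the ATP-sensitive channel, which opens when energy runs low. The vascular pore gene Kcnj8, encoding Kir6.1 of pericytes, had 62 counts in sham, 61 in vehicle and 107 in AGNHW. It was 1.78-fold higher in AGNHW than in sham (1.29 to 2.47), with a corrected log2 ratio of 0.64 that was still called, and its ratio of AGNHW to vehicle was 1.46 (1.06 to 2.03), short of 1.5. Abcc9, its sulphonylurea receptor partner, was 1.63-fold lower in vehicle than in sham (1.17 to 2.3), a call lost after correction, with 111 counts in sham, 55 in vehicle and 95 in AGNHW. Of 7 pericyte and smooth muscle markers counted, Abcc9 among them, 0 were called in either direction between AGNHW and sham, where 8.79% of all genes were. The summed level of the 7 was 242, 265 and 280 CPM in sham, vehicle and AGNHW. The part of these cells in the values of Kcnj8 was not tested. Kcnj14, encoding Kir2.4, had 41 counts in sham, 55 in vehicle and 56 in AGNHW and was 1.66-fold higher in vehicle than in sham (1.09 to 2.55). Its corrected log2 ratio of 0.36 was not called. Kcnj2, encoding Kir2.1 and named after its values were seen, was at 12.8, 13.1 and 16.0 CPM in sham, vehicle and AGNHW, and was called higher in both against sham after correction alone, at log2 ratios of 0.63 and 0.66. With the longest transcript of any type these were 0.58, not called, and 0.62, still called.

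None of the 10 leak channel genes was called between vehicle and sham or between AGNHW and vehicle, where 22.8% and 6.57% of all genes were. Kcnk9, encoding TASK3, was at 107, 73.8 and 93.0 CPM in sham, vehicle and AGNHW, with log2 ratios of -0.54 for vehicle to sham and 0.33 for AGNHW to vehicle. Kcnk10, encoding TREK2, was at 10.04, 6.84 and 6.57 CPM in sham, vehicle and AGNHW, and was 1.53-fold lower in AGNHW than in sham (1.21 to 1.94), with a corrected log2 ratio of -0.35. Kcnk13, encoding THIK1 of microglia, had 121 counts in sham, 87 in vehicle and 99 in AGNHW, and its difference was too small for this depth, since its counting intervals included 1 in all 3 comparisons. Kcna3, which is also known from microglia, had a larger ratio between vehicle and sham.

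The antisense RNA Kcnmb4os2 was at 3.45, 6.64 and 4.05 CPM in sham, vehicle and AGNHW. It was 1.92-fold higher in vehicle than in sham (1.39 to 2.67) and 1.64-fold lower in AGNHW than in vehicle (1.2 to 2.24). Neither call held after correction. Kcnd3os was not called. The strand setting of the counting is not stated, so reads of these RNAs and of Kcnmb4 and Kcnd3 cannot be told apart.

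AGNHW against vehicle bears on the treatment only if the AGNHW mice were occluded too, which the labels leave unsaid. Of 78 members, 3 (3.85%) were called higher, Kcna1, Kcnh5 and Kcnh7, where 4.01% of all genes were. Only Kcnmb4os2 (1.28%) was called lower, where 2.56% of all genes were. These shares were near or below those of all genes. Kcna1, Kcnh5 and Kcnh7 were also called lower, and Kcnmb4os2 higher, in vehicle than in sham. Both comparisons use the same vehicle library, so these opposite calls are not a separate result. The length and GC trend accounted for 28.9% of the variance in log2 ratios between AGNHW and vehicle. The median log2 ratio was 0.04 over the 83 members and 0.00 over all genes. After correction, 4 members (5.13%) were higher, against 3.15% of all genes. These were Kcna1, Kcnh5, Kcnj8 and Kcnn3, the last at a log2 ratio of 0.66 that became 0.31 and was not called with the longest transcript of any type, and 0 were lower, against 1.59%. In either direction the share of all genes was 6.57% before and 4.74% after correction, and that of the members 5.13% in each.

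Between AGNHW and sham, 10 of 78 members (12.8%) were called lower, where 5.47% of all genes were, and 2 (2.56%) were called higher, where 3.32% of all genes were. The 2 were Kcns1 and Kcnj8. The 10 were Kcna3, Kcnb2, Kcnd2, Kcne2, Kcne4, Kcnh7, Kcnj3, Kcnk10, Kcnt2 and Kcnv1. The median log2 ratio was -0.09 over the members. The length and GC trend accounted for 40.4% of the variance in log2 ratios between AGNHW and sham. After correction 3 (3.85%) were lower, Kcna3, Kcne4 and Kcnmb4, against 3.39% of all genes, and 2 (2.56%) were higher, Kcnj2 and Kcnj8, against 2.55%. In either direction, 15.4% of the members and 8.79% of all genes were called, and 6.41% and 5.95% after correction. The log2 ratio of Kcnmb4 was -0.61 after correction and -0.31, not called, with the longest transcript of any type, where Kcne2 was called in its place at -0.60. This comparison shares the sham library with that of vehicle and sham, so its members are not a repeat of that result.

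Of 38 genes listed as partners of potassium channels, 37 were counted and 36 had a mean CPM of at least 1. Between vehicle and sham, 6 of the 36 were lower and 0 higher, where 14.2% and 8.66% of all genes were, so the share called lower was near that of all genes. Their median log2 ratio was -0.22, or -0.02 after correction. Kctd12, which speeds the desensitisation of GABA-B responses, was at 61.3, 26.3 and 35.9 CPM in sham, vehicle and AGNHW, and was 2.33-fold lower in vehicle than in sham (2.08 to 2.62). Its relative Kctd16 was 1.85-fold lower (1.38 to 2.51), and both stayed called after correction, at log2 ratios of -0.75 and -0.77. Rgs7bp, which anchors a regulator that shuts off GIRK currents, was at 205, 90.4 and 135 CPM in sham, vehicle and AGNHW, and was 2.27-fold lower in vehicle (2.13 to 2.41), with a corrected log2 ratio of -0.56 just short of the limit.

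The remaining partners called lower in vehicle were Dpp10, Abcc9 and Adam22, a binding protein of Kv1 complexes, which was 1.63-fold lower (1.53 to 1.73). After correction none of these 3 was called, with a log2 ratio of -0.12 for Adam22 and -0.20 for Abcc9. The receptor genes Gabbr1 and Gabbr2 were not called. Kctd8 was the only partner called between AGNHW and vehicle, where 6.57% of all genes were, at 1.52-fold lower in AGNHW (1.08 to 2.14). Against sham, Rgs7bp, Kctd12 and Kctd8 were lower in AGNHW and 0 partners were higher, where 5.47% and 3.32% of all genes were.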

How the data were processed

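Gene counts of 3 mouse brain RNA-seq libraries, 1 per group, were used as the authors deposited them, as whole-number raw counts per gene symbol. Reads were mapped with TopHat2 2.0.12 and Bowtie2 2.2.3 to mm9 and counted with HTSeq 0.6.0, per the submitters' processing notes, which give these names without roles. The strand setting is not given in the sources used here, nor is the annotation. Columns of other samples numbered 0.

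Counts were scaled to CPM with TMM factors (edgeR 4.0.16, R 4.3.3). A ratio of 2 libraries has a 95% exact conditional binomial interval (scipy 1.17.1), log2 ratios use a prior count of 5, and shares have exact Clopper-Pearson intervals. Intervals cover counting error only, and without molecular identifiers reads may repeat a molecule. A count of 0 allows up to 3 counts, or 0.159, 0.197 and 0.164 CPM for sham, vehicle and AGNHW. The length and GC trend was a smooth fit (mgcv 1.9.3) on genes of at least 10 CPM, with lengths from GENCODE M21 on GRCm38. The scripts were tested on simulated data.

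Members and lists were chosen with earlier results of these data known. The text names every member called with at least 50 counts in its higher library, the member of highest mean CPM in each of 15 subfamilies, a set list of members tied to glia, vessels and the main neuronal currents, and the partner genes called, and some of these are not reported here. Kcna3, Kcna5, Kcna6, Kcnd1, Kcnd3os, Kcne4, Kcng3, Kcnh1, Kcnh2, Kcnh4, Kcnh6, Kcnh8, Kcnip1, Kcnip3, Kcnj2, Kcnj4, Kcnj9, Kcnj16, Kcnmb2, Kcnmb4 and Kcnq1, and of other genes Dpp6, Kl and Steap1, were chosen after their values were seen. Alternatives were plain CPM, upper-quartile and DESeq2 1.42.0 size factors, other filters on CPM, folds of 1.25 and 2, a prior count of 1 and the length and GC correction. The longest transcript of any type was added after seeing the data.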

Additional observations from a re-analysis of the deposited data

How the results depend on the processing

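No paired analysis was possible because each group had 1 library, and for the same reason no library could be left out within a group. The counts of members depended on the fold and on the length and GC correction. Between vehicle and sham, 6 members were higher and 17 lower, against 13 and 27 at the lower fold limit tried (21.7% and 24.1% of all genes), 0 and 5 at the upper one, 2-fold (1.97% and 4.57%), 2 and 7 after correction (4.1% and 7.13%), and 2 and 8 with the longest transcript of any type (4.25% and 7.55%). The partners, 0 higher and 6 lower, had 11 lower with plain CPM (18.2% of all genes). They had 1 higher and 2 lower after correction, and 1 higher and 3 lower with the longest transcript of any type. The corrected log2 ratio of Kcnb2 was 0.0018, and that of Kcnq3 0.046, or 0.031 with the longest transcript of any type, where the uncorrected values were below 0, and the cause was not tested.

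Between AGNHW and vehicle, 3 members were higher and 1 lower. The higher count was 5 with plain CPM (5.19% of all genes), 8 at the lower fold limit tried (11.1%) and 0 at 2-fold (1.12%). The lower count was 2 with a mean CPM of at least 0.5 (2.91% of all genes) or no filter (2.95%), and 0 with at least 5 (1.06%). It was 3 at the lower fold limit tried (8.45%), 0 at 2-fold (0.746%) and 0 after correction with either transcript (1.59% and 1.55%). Plain CPM gave 2 partners higher and 0 lower (5.19% and 1.99% of all genes), where 0 and 1 were called with TMM scaling. Between AGNHW and sham, 2 members were higher and 10 lower, against 1 and 6 with a mean CPM of at least 5 (1.73% and 3.73% of all genes). The counts were 10 and 17 at the lower fold limit tried (9.9% and 14.6%) and 0 and 1 at 2-fold (1.15% and 1.23%). After correction 3 were lower with either transcript (3.39% and 3.41%), of which Kcna3 and Kcne4 were called with both. Lower partners numbered 3 (5.47% of all genes), or 1 after correction with either transcript (3.39% and 3.41%).

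No member took the opposite call in any of these settings. Plain CPM moved the median log2 ratio of all genes between vehicle and sham from 0.01 to -0.07. Depth limits members of few counts, such as Kcng3 with 2 counts in vehicle and Kcnq1 with 9 to 12.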
